A study of Mus musculus with 12 samples.

Results

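Genes of the pathway by which the small GTPase Rap1 steadies endothelial junctions were followed in the RNA of sorted glomerular endothelial cells (GEC). The set of 9 genes held *Rasip1*, *Arhgap29*, *Krit1*, *Heg1*, *Ccm2* and *Pdcd10*. Beside them it held *Bcar1*, *Slc9a3r2* and *Dab2ip*, which encode an adaptor, a scaffold and a GTPase-activating protein for Ras. Members were taken by gene name, and all 9 were listed in both deposited tables, among 15768 genes common to them and 19564 in either. The genes were chosen by name with the counts of WT and AS cells in both subpopulations, and fold changes from them, already known, so a count of members that passed a test describes the choice as much as the cells and carries no weight of its own. Each p-value below comes from a fit over all genes and was not adjusted for that choice.

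The libraries came from C57BL/6 mice of 4 months of age that carried the TekCre tdTomato reporter, in which Cre driven by the *Tek* promoter switches on a red fluorescent protein. WT mice were wild type, and AS mice, a model of Alport syndrome, were labelled Col4a5 -/-. Cells of digested glomeruli were sorted by flow cytometry into a dimtdT and a brighttdT subpopulation, which gave the groups WT-dim, AS-dim, WT-bright and AS-bright with 3 libraries each. The dim and the bright library with the same number came from the same mouse, so 6 mice gave 12 libraries. The comparisons asked how the transcriptome differed between the genotypes within a subpopulation and between the subpopulations within a genotype.

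Rap1 is a molecular switch at cell junctions. In its active form it recruits Rasip1 and Radil, which bring the RhoGAP Arhgap29 to the membrane and so lower RhoA and ROCK driven contraction, a step needed for vessels to open a lumen. Rap1 also binds Krit1, which docks on the transmembrane protein Heg1 and holds Ccm2 and Pdcd10 in the cerebral cavernous malformation (CCM) complex, named for the brain vessel lesions that follow its loss. The CCM complex restrains the kinase MEKK3 (gene *Map3k3*) and with it the transcription factors Klf2 and Klf4.

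Counts on genes ran from 11440169 to 15074909 per library. *Col4a5* was read at 771, 439 and 877 counts in WT-dim and at 51, 24 and 17 counts in AS-dim, as the labels have it. In bright cells WT mice gave 158, 69 and 78 counts and AS mice 43, 104 and 55, so *Col4a5* does not separate the bright libraries by genotype. The label of glomerular endothelial cells was checked with 14 endothelial markers, whose summed CPM (the count set to a common library size with edgeR's TMM factors over all 12 libraries) was 12454 to 20737 in the bright libraries, 846 to 1587 in WT-dim and 249.6 to 345 in AS-dim. No endothelial marker was at or below 3 counts in every library of a group. The summed CPM of the leukocyte markers, 13 of 18 of which were in both tables, was 9004 to 15531 in WT-dim, 17123 to 19753 in AS-dim and 55.1 to 153 in the bright libraries. The dim libraries thus held more leukocyte than endothelial marker RNA, and they are called here by their sort gate. In bulk libraries such as these, fewer cells of a type and less RNA per cell cannot be told apart.

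Promoter windows from RefSeq (GRCm38.p6, from 250 bases before to 50 bases after the start site) were given for all 9 genes, 17 windows in all. They were searched on both strands for CCGGAAG and CAGGAAG, which are ETS-like, for the forkhead-like GTAAACA and for CACACCC, as bound by Kruppel-like factors. The stretches below show some of the matches, those at Rasip1 and Arhgap29 and 1 stretch each for Heg1, Krit1 and Ccm2, with matches in capitals, positions counted from the start base and all on the plus strand.
Rasip1, chr7:45627434-45627463, positions -103 to -74: cccctccccgctCTTCCTGccgggtttcct
Heg1, chr16:33684364-33684393, positions -102 to -73: cgcccccgccctCTTCCTGccctctccccg
Krit1, chr5:3802931-3803168, positions -250 to -13: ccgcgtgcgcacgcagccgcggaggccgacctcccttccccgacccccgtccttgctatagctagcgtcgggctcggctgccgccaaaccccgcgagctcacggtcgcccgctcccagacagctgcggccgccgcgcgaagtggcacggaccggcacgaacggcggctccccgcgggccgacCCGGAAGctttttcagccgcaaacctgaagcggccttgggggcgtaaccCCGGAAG
Ccm2, chr11:6546637-6546886, positions -250 to -1: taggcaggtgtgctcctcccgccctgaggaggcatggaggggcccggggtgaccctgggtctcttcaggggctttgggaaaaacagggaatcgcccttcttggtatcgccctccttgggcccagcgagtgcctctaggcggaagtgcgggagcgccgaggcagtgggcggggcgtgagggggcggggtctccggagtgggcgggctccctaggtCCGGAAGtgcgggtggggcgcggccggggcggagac
Arhgap29, the downstream of its start sites, chr3:121967556-121967805, positions -250 to -1: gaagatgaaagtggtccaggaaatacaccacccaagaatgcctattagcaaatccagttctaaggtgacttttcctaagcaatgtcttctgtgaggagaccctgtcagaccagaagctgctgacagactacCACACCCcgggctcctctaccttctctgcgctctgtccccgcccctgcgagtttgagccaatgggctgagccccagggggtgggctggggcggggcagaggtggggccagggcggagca

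CCGGAAG was found at 2 members, *Krit1* and *Ccm2*, in 3 of the 17 windows, against 8.86% of the 32851 promoter windows of the RefSeq table. The windows of *Krit1* overlap. CAGGAAG, read on the opposite strand at *Rasip1*, *Heg1* and *Dab2ip*, lay at 5 members (*Rasip1*, *Heg1*, *Ccm2*, *Pdcd10* and *Dab2ip*). It was in 5 of the 17 windows, against 13.3% of all windows. CACACCC lay at 2 members, *Arhgap29* and *Heg1*, in 2 of the 17 windows against 7.95%, and GTAAACA in no window of the 9 genes against 3.65%. Genes with several windows had several chances of a match. A match of 7 letters is a description of the sequence and not a bound site.

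**Figure D1:**
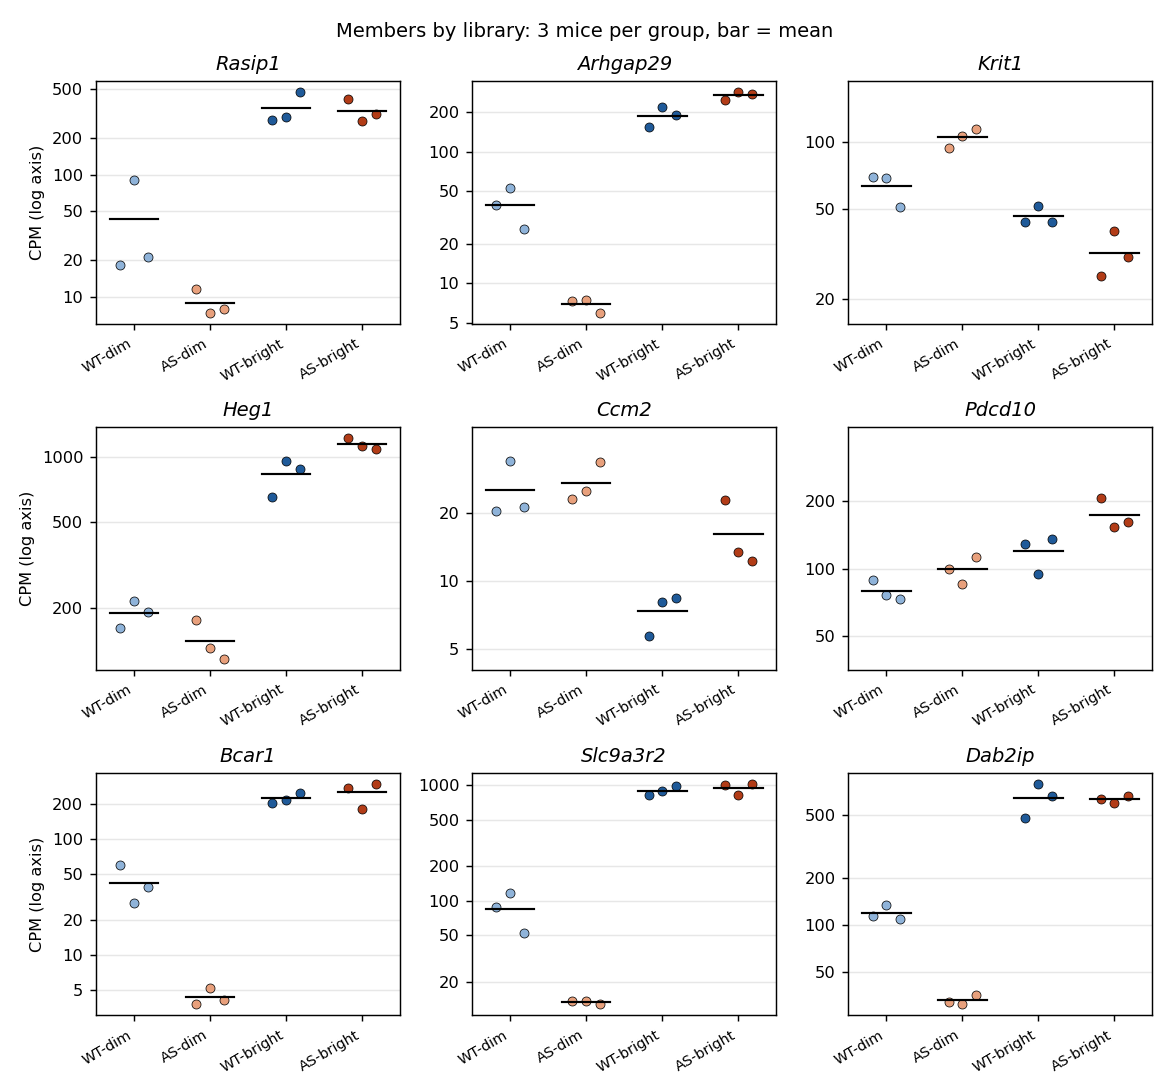
Level of each of the 9 genes in each library, as CPM on a log axis, for WT-dim, AS-dim, WT-bright and AS-bright (points, 1 per mouse, bar, mean of 3). *Rasip1*, *Arhgap29*, *Bcar1*, *Slc9a3r2* and *Dab2ip* sit lowest in AS-dim and high in both bright groups, while *Krit1* is highest in AS-dim.

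*Rasip1* (ENSMUSG00000044562, chromosome 7, 45627488 to 45639093, plus strand of GRCm38) encodes the Ras-interacting protein that binds active Rap1. Its counts were 208, 1060 and 252 in WT-dim and 164, 90 and 100 in AS-dim, against 4397, 4136 and 7156 in WT-bright and 5663, 4189 and 4270 in AS-bright. WT-dim replicate 2 stood above the other dim libraries, and the genotypes overlapped in bright but not in dim cells. Bright over dim, the log2 fold change was 3.05 in WT (standard error, SE, 0.60, adjusted p = 0.00556 by edgeR's quasi-likelihood F-test and the Benjamini-Hochberg method) and 5.18 in AS (SE 0.26, adjusted p = 1.32e-07). AS over WT it was -2.28 in dim (SE 0.64, adjusted p = 0.0643) and -0.14 in bright cells (SE 0.26, adjusted p = 0.799), and neither passed the threshold of 0.05. Without WT-dim replicate 2 the log2 fold change was 4.19 for bright over dim in WT and -1.20 for AS over WT in dim. Of its 3202 exon bases, 654 lie also in exons of *Izumo1* on the same strand, and 498 and 222 in exons of the antisense genes *A030001D20Rik* and *Gm45437*, so its counts are uncertain to that extent.

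*Arhgap29* (ENSMUSG00000039831, chromosome 3, 121952541 to 122016753, plus strand) encodes the RhoGAP that works with Rasip1. It had 450, 627 and 308 counts in WT-dim, 105, 91 and 75 in AS-dim, 2448, 3073 and 2907 in WT-bright and 3406, 4353 and 3783 in AS-bright. No library of one group overlapped another group in CPM. In dim cells it fell in AS by 2.53 on the log2 scale (SE 0.36, adjusted p = 0.0179, edgeR), a 5.78-fold difference. In bright cells AS lay above WT in every library, by 0.45 (SE 0.19, adjusted p = 0.213), which did not pass. Bright over dim it rose 4.92-fold in WT (adjusted p = 0.00071) and 38.2-fold in AS (adjusted p = 3.64e-08).

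*Slc9a3r2* (ENSMUSG00000002504, chromosome 17, 24639286 to 24650327, minus strand) encodes the scaffold NHERF2, which ties membrane proteins to ezrin and the cortical actin. It was read at 998, 1363 and 619 counts in WT-dim, 193, 163 and 159 in AS-dim, 12861, 12382 and 14757 in WT-bright and 13738, 12480 and 14033 in AS-bright. The 3 AS-dim libraries lay close together and under all others, and the bright genotypes overlapped. The log2 fold change of AS over WT was -2.71 in dim (SE 0.33, adjusted p = 0.0149, edgeR), a 6.55-fold fall, and 0.02 in bright cells (SE 0.20, adjusted p = 0.968). It rose 10.8-fold from dim to bright in WT (adjusted p = 9.77e-05) and 70.6-fold in AS (adjusted p = 3.04e-08).

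*Bcar1* (ENSMUSG00000031955, chromosome 8, 111710474 to 111743809, minus strand) encodes p130Cas, an adaptor of integrin adhesions. Its counts were 675, 332 and 455 in WT-dim and 53, 63 and 51 in AS-dim. Bright cells gave 3180, 3033 and 3768 counts for WT mice and 3737, 2743 and 4075 for AS mice. Dim genotypes were apart and bright genotypes overlapped. It had the lowest log2 fold change of the 9 genes for AS over WT in dim cells, -3.31 (SE 0.40, adjusted p = 0.0142, edgeR), or 9.90-fold, and 0.10 in bright cells (SE 0.23, adjusted p = 0.840). Bright over dim it rose 5.50-fold in WT (adjusted p = 0.000435) and 57.0-fold in AS (adjusted p = 9.80e-08).

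*Dab2ip* (ENSMUSG00000026883, chromosome 2, 35558266 to 35730994, plus strand) encodes a GTPase-activating protein for Ras that also binds the kinase ASK1. It had 1289, 1573 and 1292 counts in WT-dim, 455, 372 and 445 in AS-dim, 7666, 11216 and 10171 in WT-bright and 8799, 9249 and 9205 in AS-bright. The AS-dim libraries again lay under all others. The log2 fold change of AS over WT was -1.88 in dim (SE 0.20, adjusted p = 0.0128, edgeR), a 3.69-fold fall, and -0.09 in bright cells (SE 0.21, adjusted p = 0.838). It rose 5.66-fold from dim to bright in WT (adjusted p = 0.000152) and 19.3-fold in AS (adjusted p = 4.46e-08). The antisense gene *Gm13446* shares 347 of its 8366 exon bases.

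The CCM genes did not follow this pattern as one. *Heg1* (ENSMUSG00000075254, chromosome 16, 33684370 to 33771576, plus strand), the membrane anchor of Krit1, had 1840, 2548 and 2257 counts in WT-dim and 2473, 1573 and 1455 in AS-dim. Bright cells gave 10356, 13393 and 13389 counts for WT mice and 16835, 17279 and 14922 for AS mice. In CPM the dim genotypes overlapped, and every AS-bright library lay above every WT-bright library. It rose from dim to bright 4.52-fold in WT (adjusted p = 0.000261, edgeR) and 8.11-fold in AS (adjusted p = 9.49e-07). AS over WT, the log2 fold change was -0.46 in dim (SE 0.21, adjusted p = 0.219) and 0.40 in bright cells (SE 0.21, adjusted p = 0.287), neither past the threshold.

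*Krit1* (ENSMUSG00000000600, chromosome 5, 3803184 to 3845564, plus strand), the Rap1-binding subunit, had 794, 812 and 609 counts in WT-dim, 1325, 1278 and 1420 in AS-dim, 695, 729 and 667 in WT-bright and 348, 611 and 420 in AS-bright. The AS-dim libraries were the highest of the 12 and the AS-bright libraries the lowest in CPM. AS over WT, its log2 fold change was 0.69 in dim (SE 0.21, adjusted p = 0.0816, edgeR) and -0.61 in bright cells (SE 0.25, adjusted p = 0.186), each short of the threshold. Bright over dim it fell in AS by 1.71 on the log2 scale (SE 0.21, adjusted p = 8.12e-05), and in WT the value was -0.39 (SE 0.26, adjusted p = 0.302). The same-strand gene *Lrrd1* overlaps its span and shares 0 of its exon bases.

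*Ccm2* (ENSMUSG00000000378, chromosome 11, 6546887 to 6596744, plus strand), the subunit that links Krit1 to MEKK3, was read at 232, 405 and 253 counts in WT-dim, 328, 303 and 423 in AS-dim, 90, 113 and 127 in WT-bright and 313, 205 and 169 in AS-bright. The dim genotypes overlapped, and the bright libraries of AS lay above those of WT. It fell from dim to bright in WT by 1.74 on the log2 scale (SE 0.40, adjusted p = 0.0117, edgeR), a 3.34-fold difference, and in AS by 0.77 (SE 0.29, adjusted p = 0.0453). The AS call was lost when any of the AS-dim replicates, or AS-bright replicate 2 or 3, was left out, with an adjusted p of 0.160 at most. AS over WT, the log2 fold change was 1.07 in bright (SE 0.36, adjusted p = 0.137) and 0.08 in dim cells (SE 0.31, adjusted p = 0.904).

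*Pdcd10* (ENSMUSG00000027835, chromosome 3, 75516490 to 75556856, minus strand), the subunit that binds the kinases Stk24, Stk25 and Stk26, had 1013, 899 and 873 counts in WT-dim, 1408, 1033 and 1408 in AS-dim, 2024, 1333 and 2054 in WT-bright and 2827, 2346 and 2220 in AS-bright. In CPM the dim genotypes overlapped and the bright ones did not. It rose from dim to bright in AS by a log2 fold change of 0.80 (SE 0.19, adjusted p = 0.00454, edgeR), while the value in WT was 0.64 (SE 0.25, adjusted p = 0.0934). AS over WT it was 0.29 in dim (adjusted p = 0.420) and 0.46 in bright cells (adjusted p = 0.262).

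**Figure D2:**
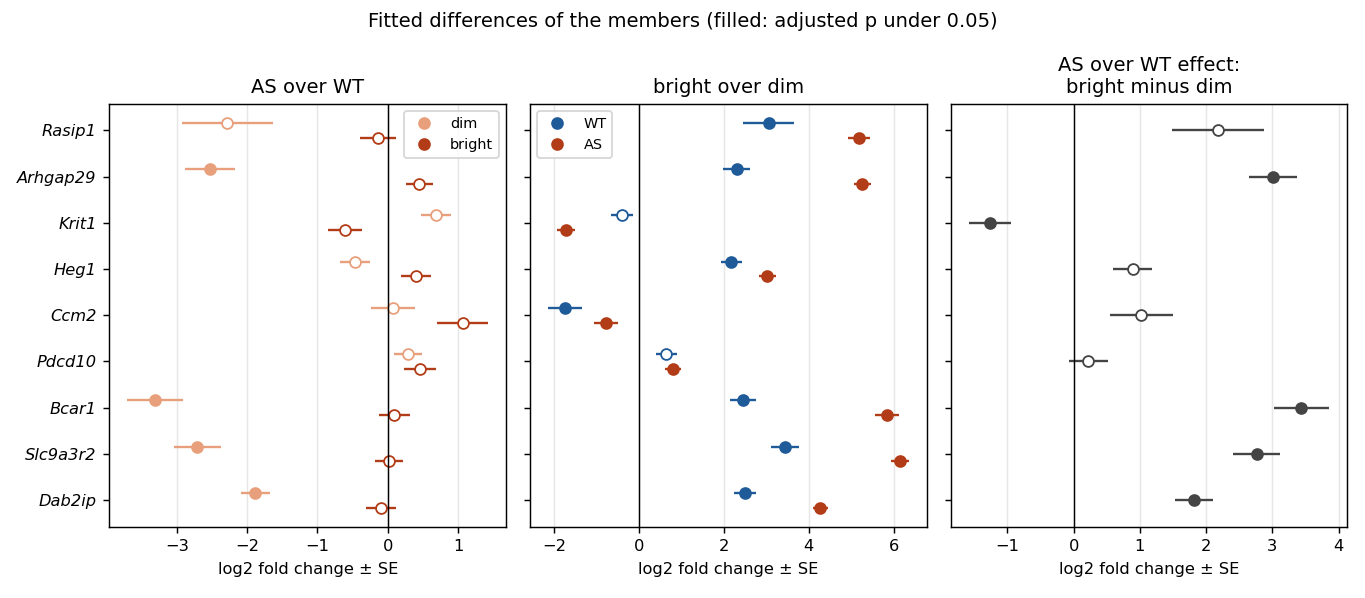
Fitted log2 fold change of each of the 9 genes with its SE, for AS over WT in dim and bright cells, for bright over dim in WT and AS, and for the difference of the AS over WT effects (bright minus dim). Filled points passed an adjusted p of 0.05; *Bcar1* lies farthest left for AS over WT in dim cells (-3.31) and *Slc9a3r2* farthest right for bright over dim in AS (6.14).

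Counted by comparison, 4 of the 9 genes passed for AS over WT in dim cells, all lower in AS, where 8.63% of 14637 genes tested passed and 6.42% were lower. The median log2 fold change of all 9 was -1.88, beside -0.02 over all genes. Between the bright genotypes 0 of 9 passed edgeR's quasi-likelihood test and 0 passed DESeq2. Of the 14396 genes tested, 0.452% passed the former and 1117 genes the latter. An unadjusted p under 0.05 was seen at 3 of the 9, beside 21.8% of all genes. For bright over dim, 6 genes were higher and 1 lower in WT, where 25.3% of 14247 genes passed and 13.8% were higher. In AS 7 were higher and 2 lower, where 55.1% of 14052 genes passed, 28.6% higher and 26.5% lower. The medians of the 9 genes were 2.30 in WT and 4.27 in AS, beside -0.04 and 0.02 over all genes. Without AS-dim replicate 1, 0 of the 9 genes and 0 of all genes passed for AS over WT in dim cells (edgeR), and 7 of the 9 had an unadjusted p under 0.05, beside 19.4% of all genes in that fit. With every library in, the unadjusted p was under 0.05 at 6 of the 9, beside 26.3% of all genes. Without AS-dim replicate 3, 0 of the 9 and 1 of all genes passed, and 6 of the 9 had an unadjusted p under 0.05, beside 19.6% of all genes in that fit. The fold changes of the 4 genes moved little there, from -3.26 for *Bcar1* to -1.90 for *Dab2ip*.

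The AS over WT effect differed between the subpopulations at 5 of the 9 genes in a fit of all 12 libraries, 4 with a positive and 1 with a negative difference, where 3.77% of 15084 genes passed, 2.96% with a positive and 0.815% with a negative one. The difference, bright minus dim on the log2 scale, was 3.44 for *Bcar1* (SE 0.42, adjusted p = 0.00256, edgeR), 3.01 for *Arhgap29* (SE 0.37, adjusted p = 0.00256), 2.77 for *Slc9a3r2* (SE 0.35, adjusted p = 0.00348) and 1.82 for *Dab2ip* (SE 0.28, adjusted p = 0.00478). For *Krit1* it had the other sign, -1.27 (SE 0.32, adjusted p = 0.0423). That call was lost when any library other than AS-bright replicate 2 was left out, with values of -1.39 to -1.12 and an adjusted p of up to 0.123. *Rasip1* had 2.18 (SE 0.70, adjusted p = 0.105), or 1.06 without WT-dim replicate 2, *Heg1* 0.89 (SE 0.30, adjusted p = 0.117), *Ccm2* 1.02 (adjusted p = 0.269) and *Pdcd10* 0.22 (adjusted p = 0.751), short of the threshold. With the mouse as a replicate block *Heg1* passed, at 0.92 (adjusted p = 0.0498). The median difference over all genes was 0.13 with TMM scaling and -0.03 with library sizes alone, and the 5 genes passed under both.

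Levels were set per kb of annotated exon to compare genes with each other. In WT-bright *Slc9a3r2* was highest at 336 ± 29.7 CPM per kb (SD, n = 3), followed by *Rasip1* at 109 ± 33.3, *Dab2ip* at 77.8 ± 18.9 and *Heg1* at 65.2 ± 12.2, each of the latter overlapping its neighbour in the order. *Krit1* at 2.13 ± 0.212 and *Ccm2* at 2.01 ± 0.397 were lowest and overlapped. In AS-bright *Slc9a3r2* was again first, at 357 ± 43.1 CPM per kb. In AS-dim the order was another one, with *Pdcd10* first at 33.7 ± 4.55 CPM per kb, *Heg1* at 11.0 ± 2.40 and *Ccm2* at 7.46 ± 1.54, and with *Bcar1* at 0.956 ± 0.171 and *Arhgap29* at 0.792 ± 0.0983 last and overlapping. In WT-dim *Slc9a3r2* at 32.1 ± 11.9 and *Pdcd10* at 27.0 ± 2.79 CPM per kb led and overlapped.

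The endothelial marker RNA differed between the groups as well. Between the dim genotypes 9 of the 14 endothelial markers were lower in AS and 0 higher (median log2 fold change -2.24), and *Tek* itself, whose promoter drives the Cre, fell 6.06-fold (adjusted p = 0.0215, edgeR). Bright over dim, all 14 were higher in each genotype, with medians of 3.67 in WT and 6.23 in AS. Each gene's CPM was therefore also given as a percent of the summed CPM of the 14 markers in the same library, as a description. *Rasip1* was at 1.29%, 5.64% and 2.51% in WT-dim, 4.64%, 2.23% and 2.31% in AS-dim, 2.23%, 1.51% and 2.74% in WT-bright and 1.99%, 1.47% and 1.72% in AS-bright, with the genotypes overlapping in both subpopulations. *Slc9a3r2* ran from 3.68% to 7.26% over all 12 libraries, with 6.17% to 7.26% in WT-dim and 3.68% to 5.47% in AS-dim, which did not overlap. *Arhgap29* was at 2.80% to 3.34% in WT-dim and 1.74% to 2.97% in AS-dim, again overlapping, and *Dab2ip* at 8.01% to 12.9% and 9.22% to 12.9%. *Bcar1* too was lower in AS-dim on this scale, at 1.18% to 1.56% against 1.77% to 4.53% in WT-dim. On this scale the mean of *Rasip1*, *Arhgap29*, *Dab2ip* and *Bcar1* was lower in bright than in dim cells of either genotype, the reverse of their CPM. For *Rasip1* the mean log2 ratio of bright to dim was -0.33 in WT, with overlap, and -0.75 in AS, without. For *Slc9a3r2* it was -0.24 in WT and 0.19 in AS, with overlap in both. *Arhgap29* was at 1.11% to 1.24% in WT-bright and at most 1.53% in AS-bright, below the dim libraries of the same genotype, by a mean log2 ratio of -1.40 in WT and -0.69 in AS. *Dab2ip* was at 3.89% to 4.09% and 3.09% to 3.72%, lower than in dim cells without overlap (-1.27 in WT and -1.68 in AS). *Bcar1* was at 1.11% to 1.62% in WT-bright (-1.23, without overlap) and 0.965% to 1.65% in AS-bright (-0.14, overlapping).

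The 4 CCM genes differed on that scale. *Krit1* stood at 4.32% to 6.07% of the endothelial sum in WT-dim, 31.7% to 37.5% in AS-dim, 0.256% to 0.353% in WT-bright and 0.122% to 0.215% in AS-bright. *Pdcd10* went from 4.79% to 8.70% in WT-dim and 25.6% to 39.9% in AS-dim to at most 1.03% in the bright libraries. *Ccm2* was at 1.44% to 2.52% in WT-dim, 7.51% to 9.79% in AS-dim and at most 0.110% in bright cells. *Heg1* was at 11.4% to 22.5% in WT-dim and 33.7% to 70.0% in AS-dim, against 4.89% to 6.08% in bright cells. For these 4 genes the AS-dim libraries lay above all others. The part of the cell mixture in the differences of any gene was not tested.

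**Figure D3:**
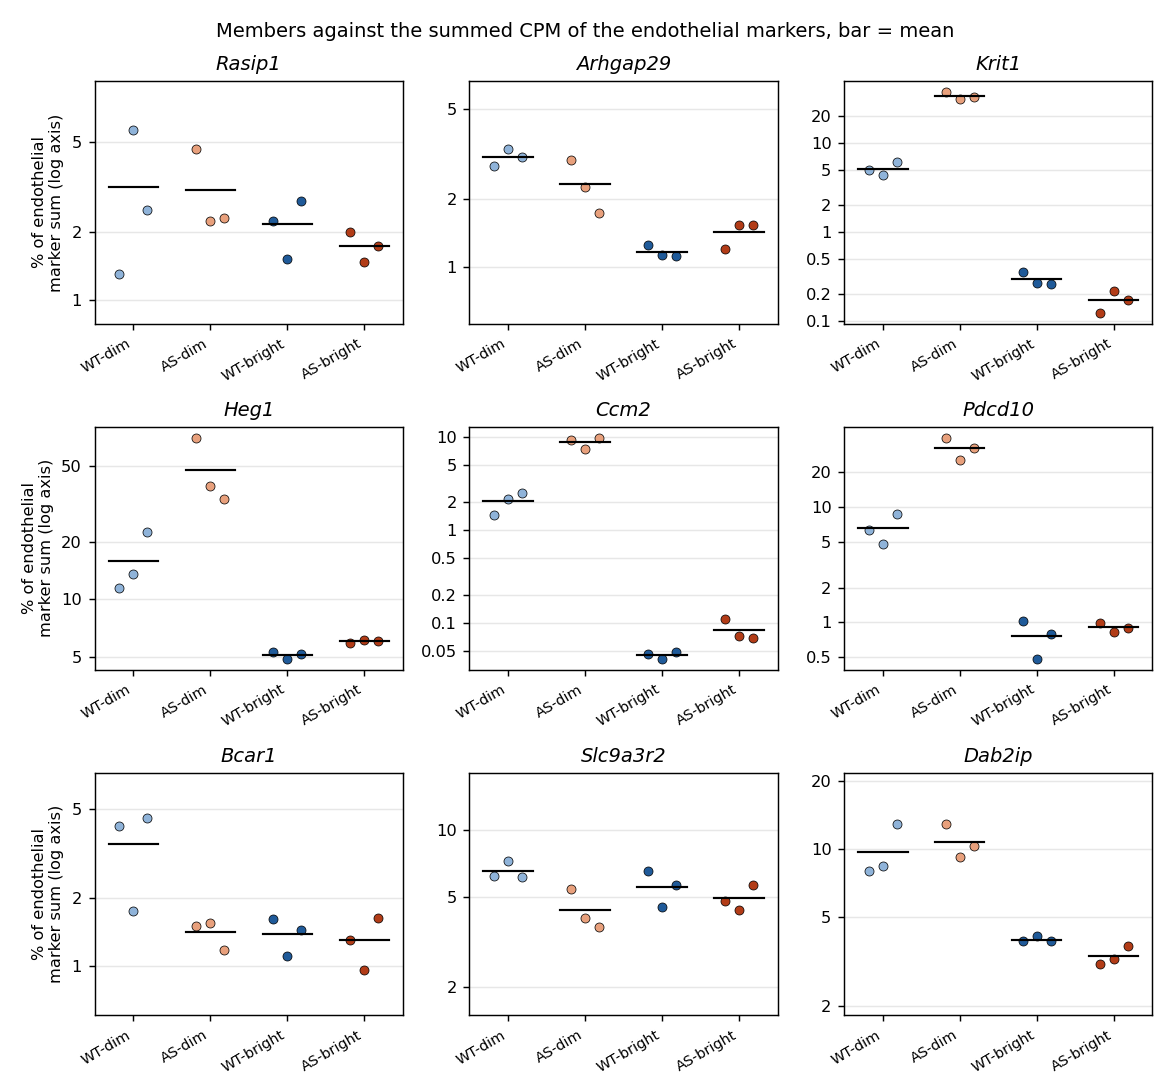
Each gene's CPM as a percent of the summed CPM of 14 endothelial markers in the same library, on a log axis, for the 4 groups (points, 1 per mouse, bar, mean of 3). *Slc9a3r2* lies between 3.68% and 7.26% in all libraries, while *Krit1*, *Ccm2*, *Pdcd10* and *Heg1* are highest in AS-dim.

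Other markers moved too. The proximal tubule sum was 1856 to 8686 CPM in WT-dim, 18.4 to 535 in AS-dim, 537 to 3634 in WT-bright and 35.7 to 768 in AS-bright, and WT mouse 1 had the highest value in each subpopulation. For AS over WT in dim cells 5 of 12 tubule markers were lower and 0 higher, 3 of 18 leukocyte markers were higher and 0 lower, and of 8 podocyte markers 1 was higher and 3 lower. The podocyte sum was 818 to 1602 CPM in dim and 999 to 1597 in bright libraries, and the mesangial and mural sum 68.5 to 277 in dim and 437 to 996 in bright libraries. *Rasip1* in WT-dim was highest in mouse 2, at 89.6 CPM. The tubule sum of that library was 1902 CPM, and its endothelial sum was the highest of the dim libraries, at 1587 CPM. Mouse 1 had an endothelial sum of 1412 CPM in WT-dim, with *Rasip1* at 18.2 CPM.

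The other genes of the pathway were taken from a list of 75. For AS over WT in dim cells 5 of 71 tested (7.04%) were lower and 0 higher, a share near the 6.42% of all genes that were lower, with a median log2 fold change of 0.11 beside -0.02 over all genes. The 5 were *Ccm2l*, a relative of *Ccm2* found in endothelium (-2.89, SE 0.38, adjusted p = 0.0172, edgeR), *Rhoc* (-2.38, adjusted p = 0.0213), *Rapgef3*, the cAMP-activated exchange factor Epac of Rap1 (-2.17, adjusted p = 0.0489), *Dock1* (-1.04, adjusted p = 0.0253) and *Pak1*, a kinase activated by Rac and Cdc42 (-0.81, adjusted p = 0.0313). *Dock1*, a Rac exchange factor bound by Cas proteins, and *Pak1* fall outside the rule for named genes and were named after their values were seen. In bright cells 0 of 68 passed edgeR's test, against 11 in DESeq2, which called 1117 genes in all. An unadjusted p under 0.05 was seen at 16 of the 68, beside the 21.8% of all genes. *Ccm2l* was read at 415, 629 and 375 counts in WT-dim, 49, 72 and 93 in AS-dim, 6099, 7203 and 9166 in WT-bright and 3989, 4531 and 4868 in AS-bright. Its groups were apart from each other in each comparison, and *Ccm2l* rose 12.8-fold from dim to bright in WT (adjusted p = 4.81e-05) where *Ccm2* fell.

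Bright over dim, 27 of 69 pathway genes were higher and 17 lower in WT, and 31 of 68 were higher and 20 lower in AS, beside the 25.3% and 55.1% of all genes that passed. The largest rises were those of *Adamts4*, a protease induced when the CCM complex is lost (log2 fold change 4.84, adjusted p = 0.000545, edgeR), *Ccm2l* (3.67) and the Cdc42-bound kinase *Cdc42bpa* (3.51, adjusted p = 6.28e-05) in WT, and of *Ccm2l* (5.80), the Rap1 exchange factor *Rapgef5* (5.29) and *Rhoc* (5.23) in AS. The largest falls in both genotypes were those of *Apbb1ip*, the Rap1 effector RIAM, with 431, 523 and 864 counts in WT-dim and 5, 2 and 2 in WT-bright, of the matrix protein gene *Thbs1* (-6.41 in WT and -6.59 in AS) and of *Rap1gap2*, which switches Rap1 off (-6.00 in WT and -5.89 in AS). *Apbb1ip* fell by 7.90 in WT (adjusted p = 2.57e-06) and by 7.36 in AS (adjusted p = 6.99e-08). The leukocyte marker sum fell from dim to bright as well, and 13 of the 13 leukocyte markers tested were lower in each genotype.

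**Figure D4:**
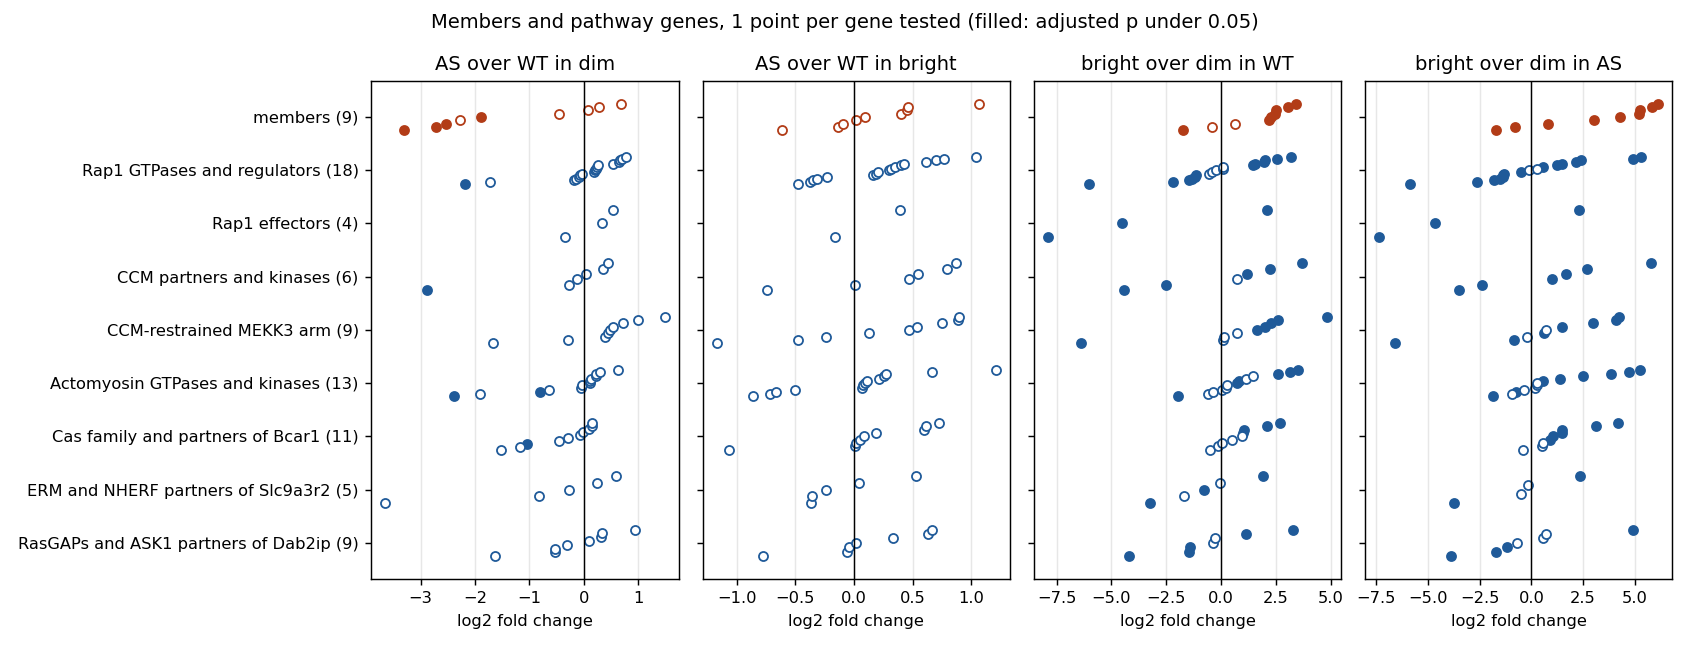
Log2 fold change of the 9 genes (red) and of the 75 pathway genes by group (blue), 1 point per gene tested, in AS over WT in dim and bright cells and in bright over dim in WT and AS; the number of genes listed stands behind each group name, filled points passed an adjusted p of 0.05, and the horizontal scales differ. In AS over WT the filled points are 4 of the 9 genes and 5 pathway genes, all lower in dim cells.

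The genes of Rap1 itself did not rise with *Rasip1* and *Arhgap29*. *Rap1a* fell from dim to bright by 1.34 on the log2 scale in WT (adjusted p = 0.00825, edgeR) and by 1.36 in AS (adjusted p = 9.01e-05), and *Rap1b* by 0.51 in AS (adjusted p = 0.0265), with -0.40 in WT (adjusted p = 0.295). *Rapgef3* rose from dim to bright by 1.99 on the log2 scale in WT (adjusted p = 0.00312) and 4.91 in AS (adjusted p = 3.76e-06). *Radil*, the partner of Rasip1, was listed in the bright table only, where WT mice gave 7, 16 and 0 counts and AS mice 6, 6 and 0.

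On the RhoA side little passed. Bright over dim, *Rhoa* had log2 fold changes of 0.24 for WT and 0.19 for AS (adjusted p = 0.439 and 0.350, edgeR). AS over WT it had 0.12 in dim and 0.09 in bright cells (adjusted p = 0.708 and 0.819). Its kinase *Rock2* rose from dim to bright in WT by 0.74 (adjusted p = 0.0377), with 0.25 in AS (adjusted p = 0.492). *Rock1* had 0.04 in WT and -0.94 in AS (adjusted p = 0.929 and 0.0641), and *Cdc42* had -0.37 and -0.36 (adjusted p = 0.323 and 0.0787).

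Of the partners of Pdcd10, *Stk24* fell from dim to bright by 2.49 in WT (adjusted p = 0.000247, edgeR) and by 2.39 in AS (adjusted p = 6.12e-06), whereas *Stk25* rose by 1.18 in WT (adjusted p = 0.0274) and 1.66 in AS (adjusted p = 4.54e-05). *Stk26*, outside the rule for named genes and named after its values were seen, fell by 4.41 in WT (adjusted p = 0.000365) and by 3.51 in AS (adjusted p = 5.62e-05). *Itgb1bp1*, which binds Krit1 and integrin tails, rose in AS by 0.98 (adjusted p = 0.0382), with 0.73 in WT (adjusted p = 0.283). *Map3k3* rose in AS by 0.60 (adjusted p = 0.0319), with 0.73 in WT (adjusted p = 0.198). For AS over WT it had 1.01 in dim and 0.89 in bright cells (adjusted p = 0.0691 and 0.115), short of the threshold in both.

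The transcription factors that MEKK3 signalling induces, *Klf2* and *Klf4*, rose from dim to bright in WT by 1.62 (adjusted p = 0.00267, edgeR) and 2.27 (adjusted p = 0.000443). In AS *Klf4* rose by 1.48 (adjusted p = 3.44e-05) and *Klf2* had 0.73 (adjusted p = 0.0533). *Klf2* was read at 45352, 60870 and 71866 counts in WT-bright and 18771, 20336 and 39445 in AS-bright. In CPM the highest AS-bright library was level with the lowest WT-bright library, and the log2 fold change of -1.17 (SE 0.33) had an adjusted p of 0.0979.

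Partners and paralogs of the adaptors were mixed. *Nedd9*, a Cas protein like Bcar1, rose from dim to bright by 1.01 in WT (adjusted p = 0.0190, edgeR) and 1.03 in AS (adjusted p = 0.000417), and its AS over WT values were 0.16 in dim and 0.19 in bright cells (adjusted p = 0.569 and 0.682). *Slc9a3r1*, the paralog of *Slc9a3r2*, fell in WT by 0.76 (adjusted p = 0.0380), with -0.48 in AS (adjusted p = 0.0619). *Msn*, the ezrin relative moesin, had -0.05 in WT and -0.14 in AS (adjusted p = 0.910 and 0.480). Its relatives, outside the rule for named genes and named after their values were seen, did pass in both genotypes. Ezrin (*Ezr*) fell from dim to bright by 3.24 in WT (adjusted p = 0.000183) and by 3.73 in AS (adjusted p = 1.94e-06), and radixin (*Rdx*) rose by 1.93 in WT (adjusted p = 0.000378) and 2.36 in AS (adjusted p = 1.24e-06).

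The difference of the AS over WT effects between the subpopulations passed at 6 of 69 pathway genes, all positive, beside 2.96% of all genes with a positive difference. *Rapgef3* had 2.97 (SE 0.56, adjusted p = 0.0118, edgeR), *Rhoc* 2.69 (SE 0.46, adjusted p = 0.00755) and *Rapgef5* 2.18 (SE 0.46, adjusted p = 0.0191). Among the endothelial markers 11 of 14 passed with a positive difference, with a median of 2.55.

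The genes whose profile over the 12 libraries was most like that of *Rasip1*, by the root mean square difference of centred log2 CPM among 9361 genes, were *Mxra7* (0.42), *Erg* (0.43), *P4ha2* (0.44), *Cdc42ep1* (0.48) and *Cracr2b* (0.49). Those most like *Arhgap29* were *Adamts16* (0.20), *Fermt2* (0.24), *Wwtr1* (0.31), *Zcchc14* (0.32) and *Colgalt2* (0.33), closer than any gene was to *Rasip1*. The likeness describes libraries that share mice, depth and cell mixture, and *Erg* is one of the endothelial markers.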

How the data were processed

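Sorted dimtdT and brighttdT GEC of 3 WT and 3 AS mice were measured by RNA-seq. The authors aligned reads with STAR 2.6.0c to GRCm38.p5 with Gencode M16 and deposited a table of raw gene counts per subpopulation, 17811 genes in the dim and 17521 in the bright one, beside 92 ERCC spike-ins, which were left out. The strand setting of the counting is not given in the sources used here. The deposited gene length was not used to set levels, since it exceeds the annotated exon bases by up to 7.56 times (*Dab2ip*). The authors' RPKM, log2 fold changes, likelihood ratios, p-values and FDR were not used. No further per-sample column was left unmapped (0).

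Counts were tested with edgeR 4.0.16 in R 4.3.3 (filterByExpr, TMM, glmQLFit, glmQLFTest, Benjamini-Hochberg over all genes tested, threshold 0.05). AS over WT was fitted on the 6 libraries of a table, bright over dim on the 6 libraries of a genotype, and the difference of effects on all 12, the latter on genes in both tables. The standard error is the fold change over the root of F. Script steps were tested on simulated data. CPM come from 1 TMM scaling of the 12 libraries, and exon bases and coordinates from Gencode M21. Where a symbol had several rows, the one with the most counts was taken.

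Members and lists were chosen with earlier results of these data known. Named were the 9 genes, 18 pathway genes in every case, and in each comparison the pathway genes that passed, had an average logCPM above 1, did not overlap as shares of the library total and had the 3 highest or 3 lowest fold changes. The genes most like *Rasip1* and *Arhgap29* were the 5 with the smallest distance among genes with an average logCPM above 3, with 0.5 added to the CPM.

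Dim and bright libraries of 1 mouse share its number in the labels. Their deviations from group means correlated at 0.0788 to 0.380 across genes. Between different mice of a genotype the values were -0.280 to 0.194, which overlaps that range. Replicates of a group differed by a chi-square of 29.5 to 104 per degree of freedom, so no library was counted more than once. Each group held 3 mice, and an exact permutation test of 3 against 3 cannot go below a p of 0.1. Each library was left out in turn, and further alternatives were DESeq2 1.42.0, RLE in place of TMM, library sizes alone, no filter, an average logCPM above 1 and the mouse as a replicate block. The default fit of edgeR's version 3 was added after seeing the data.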

Additional observations from a re-analysis of the deposited data

Results flagged for a closer look

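The effect of genotype differed between the bright and the dim subpopulation at 5 of the 9 genes by the test of the difference itself (edgeR's quasi-likelihood test on all 12 libraries, Benjamini-Hochberg adjustment over 15084 genes, of which 3.77% passed). AS over WT in bright minus AS over WT in dim was 3.01 for *Arhgap29*, 3.44 for *Bcar1*, 2.77 for *Slc9a3r2*, 1.82 for *Dab2ip* and -1.27 for *Krit1* on the log2 scale. For the first 4 the counts were lower in AS-dim than in WT-dim, and *Arhgap29* also lay higher in AS-bright than in WT-bright, by 0.45 (adjusted p = 0.213). For *Krit1* they were higher in AS-dim and lower in AS-bright, and neither effect passed alone. The call of *Krit1* was lost when any library other than AS-bright replicate 2 was left out, and passed in 8 of 19 alternatives (adjusted p of up to 0.123). The endothelial marker sum was also lowest in AS-dim, at 249.6 to 345 CPM, and its part in these values was not tested.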

How the results depend on the processing

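Over all alternatives, 576 of the fold changes of single genes kept their sign and their side of the threshold, 26 lost and 7 gained a call, and 12 changed sign. None of the sign changes concerned a gene that passed. For AS over WT in bright cells, *Rasip1* ran from -0.34 to 0.11 as single libraries were left out, *Bcar1* from -0.064 to 0.29, *Slc9a3r2* from -0.057 to 0.12 and *Dab2ip* from -0.24 to 0.058, and *Slc9a3r2* was at -0.021 with library sizes alone. For AS over WT in dim cells *Ccm2* ran from -0.093 to 0.32, and the difference of effects of *Pdcd10* from -0.017 to 0.32.

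With a library left out, the number of the 9 genes called for AS over WT in dim cells was 0 to 5. It was 0 without AS-dim replicate 1 and without AS-dim replicate 3, where nearly no gene of the whole table passed (0 and 1). Without AS-dim replicate 2, 484 of all genes passed. Without WT-dim replicate 1, 2 or 3, 786, 800 and 1825 passed, with as many libraries left. DESeq2 called 6, adding *Rasip1* (adjusted p = 0.0026) and *Krit1* (adjusted p = 0.0403), whose adjusted p ranged from 0.0026 to 0.200 and from 0.0403 to 0.241 over the alternatives. Without WT-dim replicate 3 *Rasip1* passed as well. The difference of effects of *Rasip1* passed with DESeq2 and without WT-dim replicate 1 or 3, and was 1.06 without WT-dim replicate 2, against 2.18. Over all genes DESeq2 called 2213 and the version 3 fit of edgeR 582 for AS over WT in dim cells, against 1263, and libraries left out gave 0 to 1825. In bright cells DESeq2 called 1117, the version 3 fit 0 and no filter 39, against 65, and libraries left out gave 0 to 281. For the difference of effects DESeq2 called 1186 and the replicate block 877, against 569, and libraries left out gave 252 to 857.

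With the mouse as a replicate block, which uses the pairing of dim and bright libraries, 7 genes were called for bright over dim in WT, 9 in AS and 6 in the difference of effects, the sixth being *Heg1* (adjusted p = 0.0498, 0.0498 to 0.287 over the alternatives). Over all genes the block called 4444 of 14247 in WT and 7755 of 14052 in AS, against 3604 and 7743 without it. The block changed no other call. *Ccm2* lost its call for bright over dim in AS without the filter on low counts and in the version 3 fit of edgeR. Leaving *Tek* out of the endothelial sum moved no value by more than the spread between replicates. For AS over WT in dim cells and for the difference of effects the largest SE of the 9 genes was that of *Rasip1*, at 0.64 and 0.70.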
